A study of Homo sapiens with 4 samples.

Results

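The genes of sterol and fatty acid synthesis were followed across 4 expression arrays of human pancreatic cancer cells. The members were 34 listed genes, of which 19 belonged to the sterol branch and 15 to the fatty acid and glycerolipid branch. They were found by gene symbol in the platform annotation, which placed 32 of them (18 sterol and 14 fatty acid and glycerolipid genes) on the array, among 20044 genes named by at least 1 probe. FDFT1 and ACSL3 had no probe under their symbols in the annotation used here and were not analysed.

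The arrays came from SW1990 CD166+ cells, SW1990 CD166- cells, Panc-1 CD166+ cells and Panc-1 CD166- cells, with 1 array per population. SW1990 and Panc-1 are established pancreatic cancer cell lines, and the labels give no transgene and no drug treatment for any of the 4 populations. CD166 (gene ALCAM) is a cell adhesion protein of the surface. Cells of each line were tagged with an antibody to it and divided by magnetic separation, so that CD166+ cells were the retained and CD166- cells the depleted fraction of the same line. Nothing in the labels says that a population was prepared more than once, so no spread within a population could be measured. In such bulk RNA, fewer cells of a kind and less RNA per cell cannot be told apart.

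Sterol synthesis joins acetyl-CoA units into mevalonate, isoprenoid diphosphates, squalene and lanosterol, and then trims lanosterol to cholesterol. Fatty acid synthesis starts from the same acetyl-CoA, builds palmitate, and then lengthens, desaturates, activates and esterifies it into membrane and storage lipids. Both branches are governed by the SREBP transcription factors, which SCAP escorts out of the endoplasmic reticulum and INSIG1 retains there when sterols are plentiful.

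SREBPs are known to bind sterol regulatory elements beside CCAAT boxes, the sites of NF-Y, and the promoters of the members were therefore searched for the letters of both. RefSeq promoter windows (GRCh38.p14, 250 bases before to 50 bases after each start site) were matched to 29 of the 32 genes. The pentamer CCAAT, on either strand, occurred in the windows of 13 of 17 sterol genes (76.5%) and of 7 of 12 fatty acid and glycerolipid genes (58.3%), against 39.7% of the 27305 genes with a window. A gene with several start sites had several windows and so more chances of a match, and per window the shares were 68.2%, 39.1% and 34.6% in the same order. The letters TCACNCCAC, a sterol regulatory element, were found before SREBF2 and before 1 of the 5 ACSL1 start sites, and in 1.39% of all genes. The looser TCACNCNAC, which includes every match of the first, added FDPS, GPAT3 and FADS2, and occurred in 3.13% of all genes.

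The stretch from 160 to 41 bases before the start site is shown for the sterol enzymes over 2-fold apart between the SW1990 fractions (PMVK, SC5D, LSS and MVD), for GPAT3, the fatty acid branch gene that differed most, and for SREBF2 and FDPS, the sterol genes with a match to the element. They read 5′ to 3′ on the strand of the gene. Capitals mark CCAAT and TCACNCNAC on either strand, so that a match on the opposite strand shows its reverse complement.
SREBF2 (chr22:41832945-41833064, plus strand): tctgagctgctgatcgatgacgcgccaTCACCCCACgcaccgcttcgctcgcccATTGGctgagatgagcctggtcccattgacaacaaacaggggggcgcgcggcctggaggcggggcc
FDPS (chr1:155308706-155308825, plus strand): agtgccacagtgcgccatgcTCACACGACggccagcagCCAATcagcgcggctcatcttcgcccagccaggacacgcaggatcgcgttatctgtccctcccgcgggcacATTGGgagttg
MVD (chr16:88663132-88663251, minus strand): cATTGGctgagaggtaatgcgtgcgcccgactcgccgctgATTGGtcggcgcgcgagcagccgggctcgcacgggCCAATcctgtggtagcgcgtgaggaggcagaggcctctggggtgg
LSS (chr21:46228815-46228934, minus strand): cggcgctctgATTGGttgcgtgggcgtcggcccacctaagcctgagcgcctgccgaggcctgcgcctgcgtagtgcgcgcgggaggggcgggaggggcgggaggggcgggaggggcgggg
SC5D (chr11:121292611-121292730, plus strand): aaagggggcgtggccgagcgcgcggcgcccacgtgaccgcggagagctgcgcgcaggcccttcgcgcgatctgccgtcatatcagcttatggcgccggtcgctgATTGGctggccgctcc
PMVK (chr1:154936760-154936879, minus strand): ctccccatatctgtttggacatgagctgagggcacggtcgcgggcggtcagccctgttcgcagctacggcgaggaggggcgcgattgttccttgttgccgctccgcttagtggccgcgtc
GPAT3 (chr4:83535947-83536066, plus strand): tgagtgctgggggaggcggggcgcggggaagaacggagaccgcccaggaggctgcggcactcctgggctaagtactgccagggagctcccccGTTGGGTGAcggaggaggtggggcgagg

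In SREBF2 the element began 133 bases before the start and was followed by an inverted CCAAT at 106 bases. In FDPS the looser element began at 140 bases and was followed by a CCAAT at 122 bases, which there lay on the strand of the gene. MVD held 3 CCAAT pentamers in the stretch shown, LSS held 1 and SC5D held 1, whereas PMVK held none in its whole window. These matches describe letters and were not measured as binding.

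As a check of the sort, ALCAM signal was 293 in SW1990 CD166+ and 47.3 in SW1990 CD166- cells (6.20-fold higher). In Panc-1 it was 235 in CD166+ and 44.3 in CD166- cells (5.29-fold higher). Both CD166- signals were near the lowest signal among detected probes of their arrays (41.5 and 39.0). On intensities that the authors scaled to a common mean per array, the folds were 3.10 in SW1990 and 2.87 in Panc-1. All signals here are normalized intensities without a unit, comparable between arrays for 1 probe but not between probes. Detection required a detection p-value under 0.01, and 15565 to 16716 of 47315 probes met this on an array. The 13 probes that were strong in SW1990 CD166+ cells and not detected in Panc-1 CD166- cells showed on the Panc-1 CD166+ array, in the median, 3.10% of the signal they had in SW1990 CD166+ cells. Removing that share from the Panc-1 CD166+ array left the Panc-1 counts of members over 2-fold at 0. Among 9 epithelial markers, 8 were detected in SW1990 CD166+ and 6 in SW1990 CD166- cells with summed signals of 11761 and 6980, and 7 were detected in Panc-1 CD166+ and 6 in Panc-1 CD166- cells with sums of 14754 and 18413. These sums include the signals of markers that were not detected. CDH1, an epithelial cadherin, was detected on none of the 4 arrays.

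**Figure D1:**
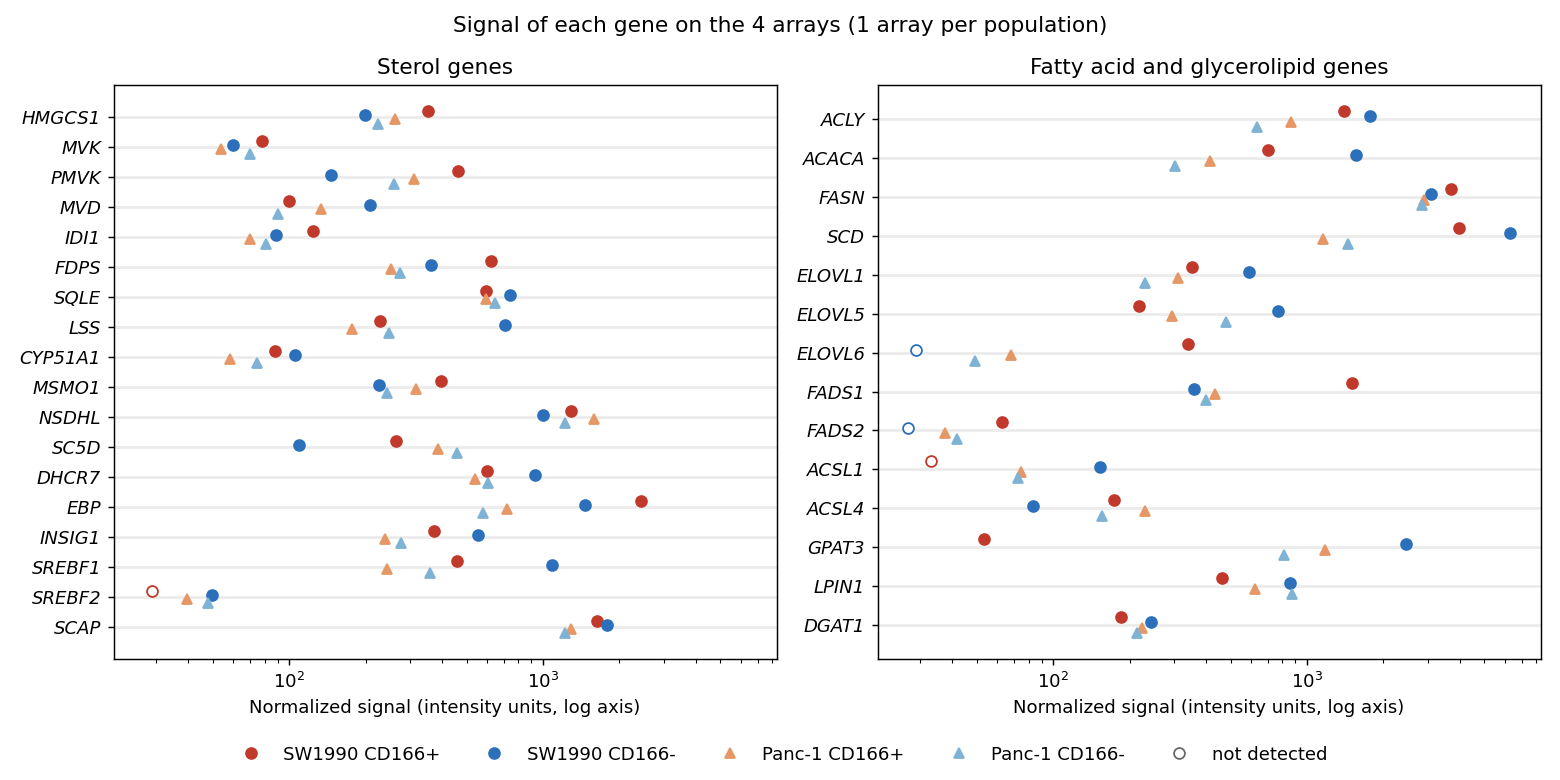
Normalized signal (log axis) of each member on the 4 arrays, circles for SW1990 and triangles for Panc-1, red and orange for CD166+ and dark and light blue for CD166-; open symbols were not detected. The Panc-1 pair sits close together on nearly every line, while the SW1990 pair is widely separated for GPAT3, ELOVL6 and FADS1.

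In SW1990, 5 of the 18 sterol genes differed by over 2-fold between the fractions, 2 higher and 3 lower in CD166+ cells. That is 27.8%, beside 27.7% of all 10783 genes detected in either fraction (13.6% higher and 14.2% lower), so the sterol genes differed about as often as the array as a whole. PMVK and SC5D were the 2 that were higher, and LSS, SREBF1 and MVD the 3 that were lower. The median log2 fold was 0.12 for the sterol genes and -0.0036 for all genes, and the median size of the fold was 0.68 and 0.57 log2 units. With 1 array per fraction these differences have no replicate check. MVD and SC5D were no longer over 2-fold without background correction or on the authors' scaled intensities, and MVD and SREBF1 no longer with median scaling, which put 6 sterol genes over 2-fold higher and 1 (LSS) lower.

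The first sterol enzymes act on mevalonate. HMGCS1, which makes the precursor HMG-CoA, had signals of 353 in SW1990 CD166+ and 199.8 in SW1990 CD166- cells, and of 260.3 in Panc-1 CD166+ and 224 in Panc-1 CD166- cells. The SW1990 fractions differed by 1.77-fold and the Panc-1 fractions by 1.16-fold, both with the higher signal in CD166+ cells. MVK, the mevalonate kinase, had 78.2 and 60.3 in SW1990 CD166+ and CD166- cells, and 53.9 and 70.1 in Panc-1 CD166+ and CD166- cells. Its folds were 1.30 in both lines but in opposite directions.

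PMVK, which adds the second phosphate, had 460.3 in SW1990 CD166+ and 146 in SW1990 CD166- cells, against 311 in Panc-1 CD166+ and 259 in Panc-1 CD166- cells. The 3.15-fold difference in SW1990 was the largest toward CD166+ cells among the sterol genes, with the CD166+ array the highest and the CD166- array the lowest of the 4. MVD, the decarboxylase that follows directly, went the other way in that line, with 99.6 in SW1990 CD166+ and 208 in SW1990 CD166- cells (2.09-fold lower). In Panc-1 it had 133 in CD166+ and 90.2 in CD166- cells (1.48-fold higher), so the CD166- array was the higher in SW1990 and the lower in Panc-1.

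IDI1, the isomerase of isopentenyl diphosphate, had 125 in SW1990 CD166+ and 88.8 in SW1990 CD166- cells, and 70.1 in Panc-1 CD166+ and 80.8 in Panc-1 CD166- cells. FDPS, which makes farnesyl diphosphate and whose element is shown above, had 622 and 362 in the SW1990 CD166+ and CD166- cells (1.72-fold higher), against 252 and 274 in the Panc-1 CD166+ and CD166- cells. Both genes had their highest signal in SW1990 CD166+ cells and neither passed 2-fold.

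Squalene is oxidized by SQLE and closed to lanosterol by LSS. SQLE signals were 594 in SW1990 CD166+, 741 in SW1990 CD166-, 594 in Panc-1 CD166+ and 646 in Panc-1 CD166- cells, a narrow range, and its second probe had a log2 fold of 0.12 in SW1990 where the first had -0.32. LSS had 228 in SW1990 CD166+ and 711 in SW1990 CD166- cells, and 177 in Panc-1 CD166+ and 247 in Panc-1 CD166- cells. It was 3.12-fold lower in SW1990 CD166+ cells, the largest in that direction among the sterol genes, and 1.39-fold lower in Panc-1 CD166+ cells; SW1990 CD166- stood above the other 3 arrays. Its other 2 probes were detected on no array.

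The enzymes that trim lanosterol did not share 1 direction. CYP51A1, which removes a methyl group from lanosterol, had 87.7 and 105 in SW1990 CD166+ and CD166- cells, and 58.4 and 74.6 in Panc-1 CD166+ and CD166- cells. MSMO1, a sterol methyl oxidase, had 397 and 226 in SW1990 CD166+ and CD166- cells (1.75-fold higher), and 315 and 242 in Panc-1 CD166+ and CD166- cells (1.30-fold higher). A second MSMO1 probe disagreed in SW1990, with a log2 fold of -0.30 where the first had 0.81. NSDHL, which acts next to MSMO1, had 1287 and 1000.2 in SW1990 CD166+ and CD166- cells, and 1592 and 1219 in Panc-1 CD166+ and CD166- cells. Its folds in the 2 lines were nearly equal, at 1.29 and 1.31 toward CD166+ cells.

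EBP, the isomerase of the sterol ring, had 2432 in SW1990 CD166+ and 1464 in SW1990 CD166- cells, against 719.5 in Panc-1 CD166+ and 579 in Panc-1 CD166- cells. Both SW1990 arrays thus lay above both Panc-1 arrays. SC5D, a desaturase of the ring, had 262 in SW1990 CD166+ and 109 in SW1990 CD166- cells (2.40-fold higher), and 385 in Panc-1 CD166+ and 458 in Panc-1 CD166- cells (1.19-fold lower). The SW1990 CD166- array was the lowest of the 4 and both Panc-1 arrays were above both SW1990 arrays. DHCR7, which catalyses a last step to cholesterol, had 603 and 926 in SW1990 CD166+ and CD166- cells, and 539.9 and 605 in Panc-1 CD166+ and CD166- cells; its second probe had an SW1990 log2 fold of 0.05 where the first had -0.62.

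All 4 regulators had a lower signal in SW1990 CD166+ than in SW1990 CD166- cells, and 5401 of all 10783 detected genes had a negative log2 fold there. The median log2 fold of the 4 regulators was -0.46, and 1 of them passed 2-fold. With median scaling the sign of SCAP, the smallest of the 4 differences, was positive. Between probes of 1 gene, the SW1990 log2 folds had an SD of 0.44 (1985 genes with several detected probes). SREBF1, which encodes the SREBP best known for fatty acid genes, had 458 in SW1990 CD166+ and 1081 in SW1990 CD166- cells (2.36-fold lower), and 242 in Panc-1 CD166+ and 358 in Panc-1 CD166- cells (1.48-fold lower). A second detected SREBF1 probe had log2 folds of -1.50 in SW1990 and -0.57 in Panc-1, so the probes went the same way. The SW1990 CD166- array was the highest of the 4 for both.

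SREBF2, which encodes the SREBP best known for sterol genes, was dim on all arrays. Its signal was 49.7 in SW1990 CD166- cells and it was not detected in SW1990 CD166+ cells, which gives a difference of at least 1.27-fold lower in CD166+ cells. For an array without detection, bounds here use the lowest signal among its detected probes (39.1 and 41.5 in SW1990 CD166+ and CD166- cells, 37.4 and 39.0 in Panc-1 CD166+ and CD166- cells), or the probe's own signal where that is higher. In Panc-1, SREBF2 had 39.4 in CD166+ and 47.9 in CD166- cells. INSIG1 had 373 and 556 in SW1990 CD166+ and CD166- cells (1.49-fold lower), and 239 and 275 in Panc-1 CD166+ and CD166- cells, and SCAP had 1639 and 1783 in SW1990 CD166+ and CD166- cells, and 1289 and 1225 in Panc-1 CD166+ and CD166- cells.

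In the fatty acid and glycerolipid branch, 7 of 14 genes (50%) differed by over 2-fold between the SW1990 fractions, beside the 27.7% of all genes; 3 were higher and 4 lower in CD166+ cells. ELOVL6, FADS1 and ACSL4 were higher, and GPAT3, ACSL1, ELOVL5 and ACACA were lower. The median log2 fold was -0.53, and the median size of the fold was 0.98 log2 units, against 0.57 for all genes. ACSL4 was not over 2-fold without background correction or on the scaled intensities, and ACACA was not with median scaling. The list is short and was given no test.

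**Figure D2:**
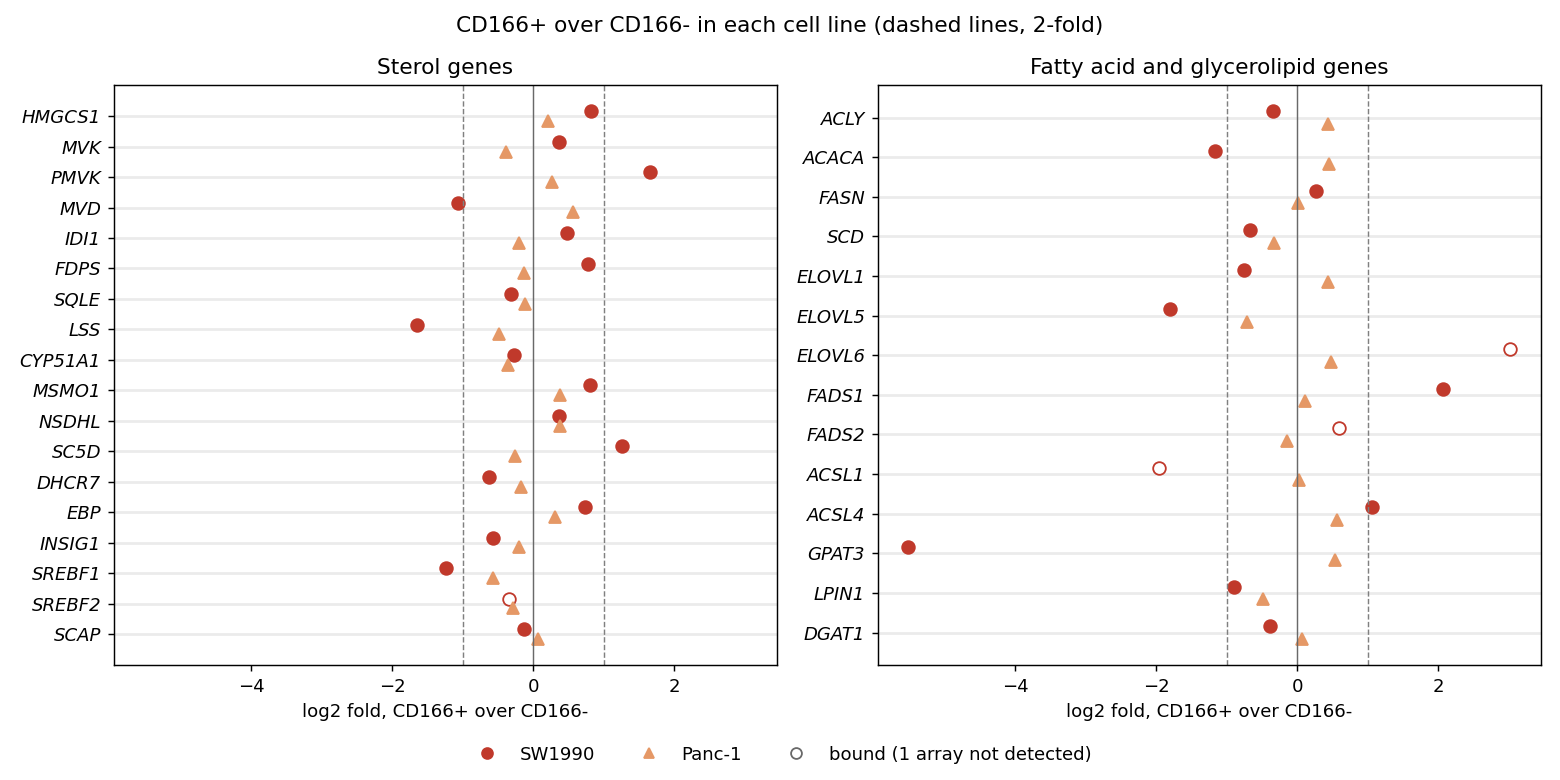
Log2 fold of CD166+ over CD166- cells for each member (1 array per population), circles for SW1990 and triangles for Panc-1; open circles are bounds because 1 array had no detection, and dashed lines mark 2-fold. In SW1990, 12 members lie outside the dashed lines, from GPAT3 at -5.52 to ELOVL6 at 3.03 or more, and in Panc-1 none does.

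The trunk of the fatty acid pathway runs through ACLY, ACACA, FASN and SCD. ACLY, which makes acetyl-CoA from citrate, had 1401 and 1767 in SW1990 CD166+ and CD166- cells, and 863 and 634 in Panc-1 CD166+ and CD166- cells. ACACA, whose product malonyl-CoA commits carbon to fatty acids, had 699 and 1562 in SW1990 CD166+ and CD166- cells (2.24-fold lower), and 416 and 303 in Panc-1 CD166+ and CD166- cells (1.37-fold higher). Its second detected probe had SW1990 and Panc-1 log2 folds of -1.27 and 0.39, the same directions as the first at -1.16 and 0.46. For both enzymes the SW1990 arrays lay above the Panc-1 arrays, and CD166+ cells had the lower signal in SW1990 and the higher in Panc-1.

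FASN, the synthase that builds palmitate, varied little, with 3701 in SW1990 CD166+, 3073 in SW1990 CD166-, 2881 in Panc-1 CD166+ and 2847 in Panc-1 CD166- cells. SCD, which puts the double bond into saturated fatty acids, had 3980.5 and 6323 in SW1990 CD166+ and CD166- cells (1.59-fold lower), against 1156 and 1453 in Panc-1 CD166+ and CD166- cells (1.26-fold lower). SCD was thus separated by line, with both SW1990 arrays above both Panc-1 arrays.

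The elongases did not share a direction in SW1990. ELOVL6, which lengthens palmitate, had 338 in SW1990 CD166+ cells and was not detected in SW1990 CD166- cells, a difference of at least 8.15-fold, while Panc-1 CD166+ and CD166- cells had 68.3 and 49.0. The Panc-1 log2 fold of ELOVL6 was 0.48, and 0.25 once the SW1990 CD166+ share was removed. A second ELOVL6 probe was detected only in SW1990 CD166+ cells, at 119.7. ELOVL5, which lengthens polyunsaturated fatty acids, had 219 in SW1990 CD166+ and 765 in SW1990 CD166- cells (3.50-fold lower), and 294 in Panc-1 CD166+ and 481 in Panc-1 CD166- cells (1.63-fold lower). In both lines the CD166- array was the higher. ELOVL1, which makes very long saturated chains, had 352 and 592 in SW1990 CD166+ and CD166- cells (1.68-fold lower), and 311 and 229.7 in Panc-1 CD166+ and CD166- cells (1.36-fold higher).

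FADS1 and FADS2 encode the desaturases of polyunsaturated fatty acids, and their nearest start sites lie 599 bases apart on opposite strands of chromosome 11. FADS1 had 1499.8 in SW1990 CD166+ and 357 in SW1990 CD166- cells (4.20-fold higher), against 432 in Panc-1 CD166+ and 401 in Panc-1 CD166- cells. The SW1990 CD166+ array stood well above the other 3, which were close together. FADS2 had 62.7 in SW1990 CD166+ cells and was not detected in SW1990 CD166- cells, a difference of at least 1.51-fold, and had 37.6 and 41.7 in Panc-1 CD166+ and CD166- cells.

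The acyl-CoA synthetases, which activate fatty acids, differed in opposite directions. ACSL1 was not detected in SW1990 CD166+ cells and had 152 in SW1990 CD166- cells, so it was at least 3.90-fold lower, while Panc-1 CD166+ and CD166- cells had 74.5 and 72.9. ACSL4, which prefers arachidonate, had 174 and 83.2 in SW1990 CD166+ and CD166- cells (2.09-fold higher), and 231 and 156 in Panc-1 CD166+ and CD166- cells (1.48-fold higher). CD166+ cells thus had the higher ACSL4 signal in both lines. A second ACSL4 probe was not detected in SW1990 CD166- cells. Its measured log2 folds were 1.26 in SW1990 and 0.13 in Panc-1.

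GPAT3, which starts glycerolipid assembly by acylating glycerol phosphate, showed the widest difference of all members. Its signal was 53.4 in SW1990 CD166+ and 2456 in SW1990 CD166- cells, against 1179.5 in Panc-1 CD166+ and 810.2 in Panc-1 CD166- cells. The SW1990 fractions differed by 46-fold, the 17th lowest log2 fold (-5.52) of 10783 genes. The SW1990 CD166+ array stood far below the other 3, near the lowest signal among its detected probes (39.1). The size of the fold therefore depended on the processing, and on the authors' scaled intensities it was 27.0-fold. In Panc-1 the CD166+ array was the higher by 1.46-fold. GPAT3 was 1 of the 22 members, among the 32 measured, that had a single probe and so no second probe to compare.

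The later steps of glycerolipid synthesis differed less. LPIN1, the phosphatidate phosphatase, had 462 and 858 in SW1990 CD166+ and CD166- cells (1.86-fold lower), and 624 and 874 in Panc-1 CD166+ and CD166- cells (1.40-fold lower). DGAT1, which completes triglyceride, had 185 and 243 in SW1990 CD166+ and CD166- cells, and 224 and 213 in Panc-1 CD166+ and CD166- cells. Neither passed 2-fold in either line.

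In Panc-1, none of the 32 members differed by over 2-fold, and 1.01% of 10532 genes did (0.598% higher and 0.408% lower in CD166+ cells). The log2 folds of the members ran from -0.71 for ELOVL5, the 152nd lowest of those genes, to 0.57 for MVD. The median log2 fold was -0.15 for sterol genes, 0.09 for fatty acid and glycerolipid genes and -0.0021 for all genes, and the median size of the fold was 0.27, 0.44 and 0.16 log2 units in that order. The sizes are smaller than those in SW1990 for each of the 3 groups of genes.

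The folds had the same sign in both lines for 12 of 18 sterol genes (5 positive and 7 negative) and for 7 of 14 fatty acid and glycerolipid genes (4 positive and 3 negative). Signs were opposite for 40.6% of the members and for 46.5% of 9675 genes measured in both lines. All 4 of LSS, SREBF1, ELOVL5 and LPIN1 were lower in CD166+ cells by at least 1.39-fold in each line, and only ELOVL5 by over 1.5-fold in each. ELOVL6 and ACSL4 were higher in CD166+ cells by at least 1.39-fold in each line, on the probe used for each gene. A second ACSL4 probe was 1.09-fold higher in Panc-1 CD166+ cells. The Panc-1 fold of ELOVL6 was smaller once the SW1990 CD166+ share was removed. On the authors' scaled intensities the Panc-1 folds of LSS, ELOVL6 and ACSL4 were 1.33, 1.19 and 1.30, below that cut. Those of SREBF1, ELOVL5 and LPIN1 were 1.43, 1.59 and 1.40, still above it. These 6 members were picked after their values were seen, and the share of all genes that pass the same cut was not counted.

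Treating the 2 lines as replicates of the sort, a limma fit with cell line as a block (Benjamini-Hochberg over 10367 genes) called 0 of 32 members and 0 of all genes (0%), higher or lower. Before adjustment, 1.54% of genes (160) and 1 member had p under 0.05. That member was ELOVL5, whose log2 difference was -1.26 ± 0.44 (SE; limma adjusted p = 0.922), and it was lower in 2 of 2 CD166+ arrays. Student's t-test, which did not pair the fractions by cell line, called 0 genes after adjustment and 132 before it. The fit has 1 residual degree of freedom, and an exact permutation of the sort within 2 lines cannot give a two-sided p below 0.5. ALCAM itself, 2.52 ± 0.36 log2 units higher, had an adjusted p of 0.922 in the limma fit, so a difference of that size was not called here.

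Between the lines, the same limma fit called 0 of 32 members for SW1990 over Panc-1, beside 0.81% of all genes (0.0579% higher and 0.752% lower in SW1990). The median log2 difference was 0.39 for sterol genes, 0.18 for fatty acid and glycerolipid genes and -0.04 for all genes. On the scaled intensities these medians were 0.07, 0.15 and -0.17. Before adjustment 5 of 32 members had p under 0.05, beside 16.3% of all genes, so the members passed about as often as all genes. All 5 were higher in SW1990, and the share of all genes in each direction before adjustment was not counted. SCD differed most, by 1.95 ± 0.37 log2 units (SE; limma adjusted p = 0.125), and on the authors' scaled intensities it was called (limma adjusted p = 0.0339). ACACA (1.56), EBP (1.55), SREBF1 (1.26) and ACLY (1.09 log2 units) were the other 4, with limma adjusted p-values from 0.174 to 0.300.

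**Figure D3:**
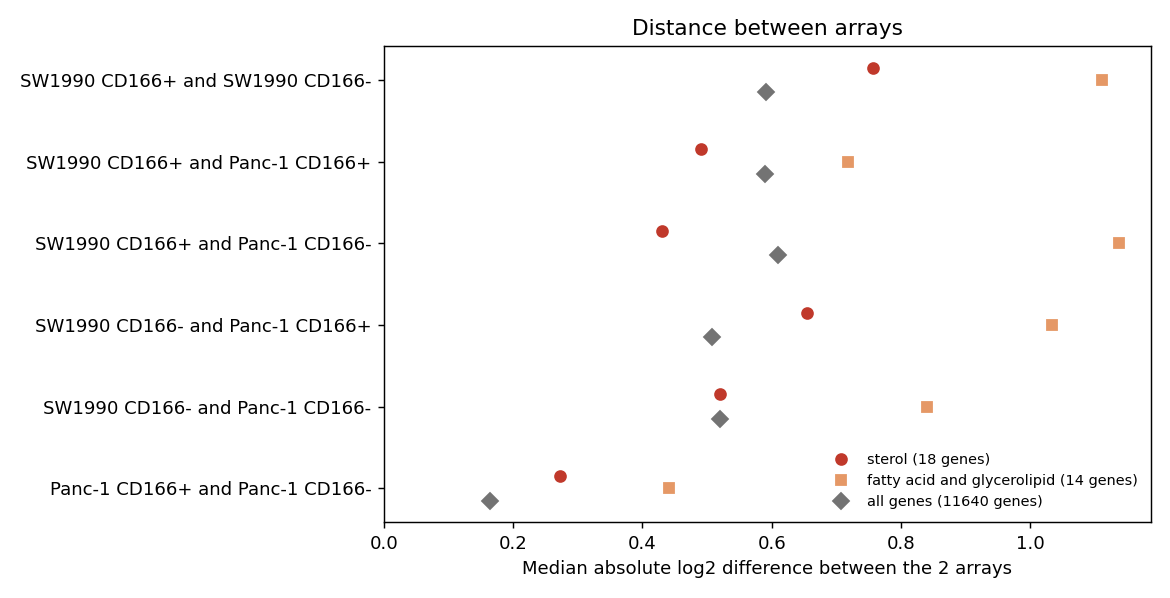
Median absolute log2 difference between each pair of the 4 arrays for the 18 sterol genes, the 14 fatty acid and glycerolipid genes and 11640 genes detected on at least 1 array. The 2 Panc-1 arrays are the closest pair in each group of genes, and the fatty acid and glycerolipid genes lie to the right of all genes in each pair.

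The distances between arrays show where the members varied. For sterol genes the 2 SW1990 arrays differed by a median of 0.76 log2 units, which was more than SW1990 CD166+ cells differed from Panc-1 CD166+ (0.49) or Panc-1 CD166- cells (0.43). For fatty acid and glycerolipid genes the distance within SW1990 was 1.11, and the distances between lines ran from 0.72 to 1.14. For all genes the distance within SW1990 was 0.59, within the range of 0.51 to 0.61 between lines. Each gene has 1 array farthest from the other 3. Among the 32 members this was SW1990 CD166+ in 14 cases and SW1990 CD166- in 14 (44.9% and 35.2% of all genes), and it was Panc-1 CD166+ in 3 and Panc-1 CD166- in 1 (9.02% and 10.9% of all genes).

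Other lipid genes were read from lists kept apart from the members. In SW1990, 27.7% of all detected genes were over 2-fold apart. The share was 25% for other sterol synthesis and 25% for sterol uptake, storage and export. Of 8 other detected genes of sterol synthesis, 0 were higher and 2 lower by over 2-fold in SW1990 CD166+ cells. HSD17B7, a ketoreductase of the methyl removal steps, had 1107 and 3218 in SW1990 CD166+ and CD166- cells (2.91-fold lower), and LBR, a sterol reductase of the nuclear envelope, had 109 and 277 (2.53-fold lower). Of 8 genes of sterol uptake, storage and export, 1 was higher and 1 lower: NR1H3, which encodes the oxysterol receptor LXR alpha, had 906 and 167 (5.42-fold higher), and LIPA, the lysosomal lipase for cholesteryl esters, had 489 and 3128 (6.40-fold lower). LIPA was also 1.93-fold lower in Panc-1 CD166+ cells, at 1013 in CD166+ and 1952 in CD166- cells.

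Of 13 other detected genes of fatty acid synthesis, 3 were higher and 5 lower by over 2-fold in SW1990 CD166+ cells. That is 61.5%, beside 27.7% of all genes. The counts became 1 and 3 without background correction and on the scaled intensities. ACSL5, a synthetase related to ACSL1, was detected only in SW1990 CD166+ cells at 205 (at least 4.94-fold higher), and SCD5, a desaturase related to SCD, only in SW1990 CD166- cells at 187 (at least 4.78-fold lower in CD166+ cells). HSD17B12, which reduces the growing chain during elongation, was 3.46-fold lower in CD166+ cells (729.7 and 2523 in SW1990 CD166+ and CD166- cells), and HACD4, a dehydratase of elongation, was 2.89-fold lower. ME1, the malic enzyme that supplies NADPH, was 2.22-fold higher, and MLXIPL, which encodes the glucose-sensing factor ChREBP, was 2.08-fold lower.

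Of 10 other detected glycerolipid genes, 0 were higher and 3 lower by over 2-fold in SW1990 CD166+ cells. That is 30%, beside 27.7% of all genes. PLIN2, which coats lipid droplets, had 229 and 985 in SW1990 CD166+ and CD166- cells (4.31-fold lower), and the acyltransferases AGPAT5 and GPAT4 were 2.48-fold and 2.04-fold lower. The list median was -0.45 log2 units.

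Of 15 detected genes of fatty acid oxidation, the catabolic route, 5 were higher and 0 lower by over 2-fold in SW1990 CD166+ cells. That is 33.3%, beside 27.7% of all genes in either direction and 13.6% of all genes higher. The log2 folds of the 15 genes had a median of 0.76, against -0.0036 for all genes. Of the 15, 12 were positive, beside 5239 of all 10783 detected genes. With median scaling 8 were over 2-fold higher, and the count of all genes over 2-fold higher also rose, from 1462 to 2218. HADH, an oxidation dehydrogenase, had 2190.3 and 787 in SW1990 CD166+ and CD166- cells (2.78-fold higher), and ACAA2, a thiolase, had 1225 and 485 (2.52-fold higher). ETFA, CPT2 and ETFB were 2.50-fold, 2.34-fold and 2.27-fold higher. In Panc-1 none of the genes in these 5 lists passed 2-fold in either direction.

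**Figure D4:**
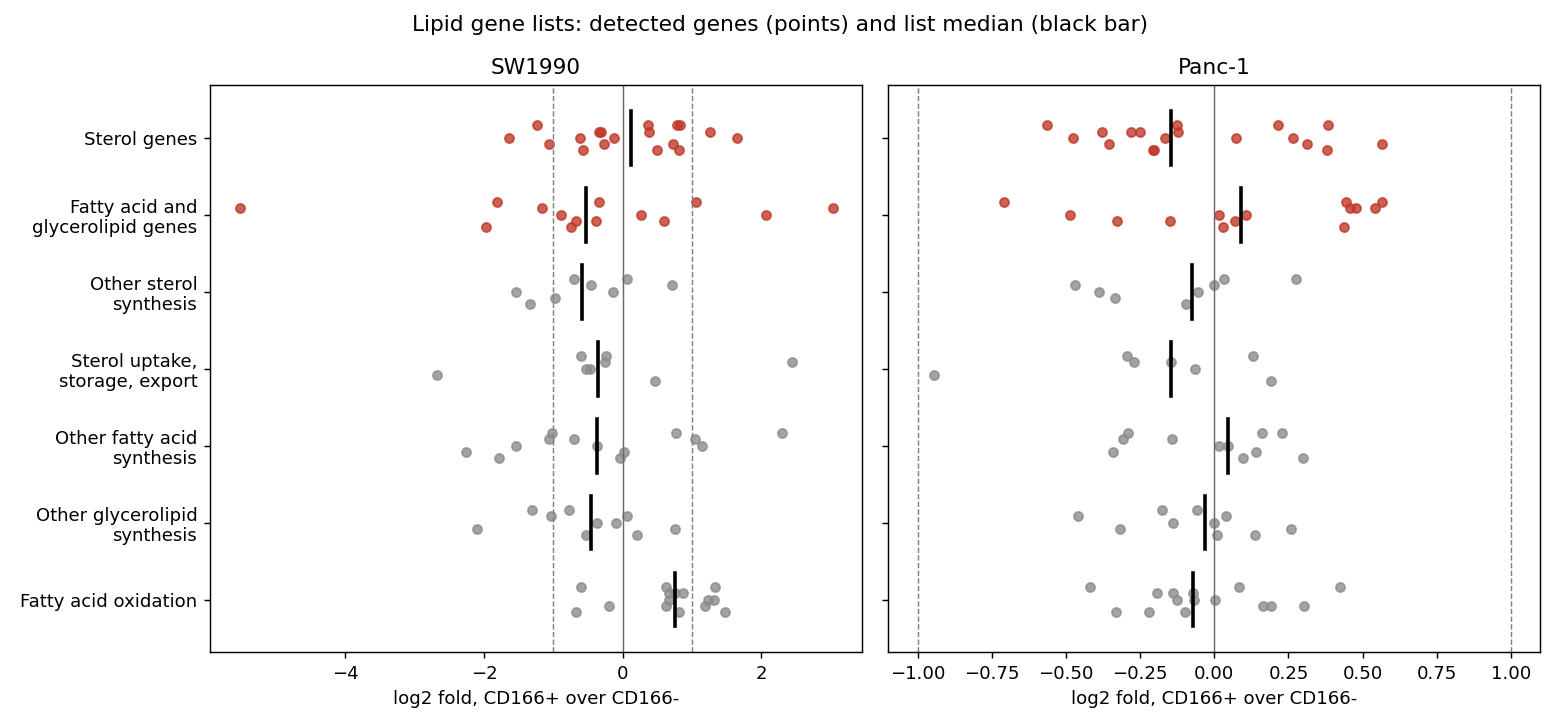
Log2 fold of CD166+ over CD166- cells for the detected genes of each lipid list (points, members in red) with the list median (black bar), SW1990 on the left and Panc-1 on the right; the 2 horizontal axes differ in range and dashed lines mark 2-fold. In SW1990 the oxidation list has its median at 0.76 and the fatty acid and glycerolipid members at -0.53, and in Panc-1 no point passes the dashed lines.

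Markers of cell identity moved with the SW1990 fractions. Of 8 detected epithelial markers, 6 (75%) were higher by over 2-fold in SW1990 CD166+ cells, beside 13.6% of all genes. Among them was KRT7, with 1991 and 58.9 in SW1990 CD166+ and CD166- cells. In Panc-1, 1 of 7 detected epithelial markers (14.3%) was over 2-fold higher in CD166+ cells, beside 0.598% of all genes. It was again KRT7, at 212 in CD166+ and not detected in CD166- cells, at least 5.45-fold higher. Of the 7 log2 folds in Panc-1, 2 were positive and 5 negative. Of 12 fibroblast markers, 3 were detected in SW1990 CD166+ and 1 in SW1990 CD166- cells. The signals of all 12, detected or not, summed to 905 and 2439, and the sums below likewise include markers not detected. ACTA2 (328), COL1A1 (218) and PDGFRB (131) were detected in SW1990 CD166+ and not in SW1990 CD166- cells, and were at least 7.90-fold, 5.24-fold and 3.16-fold higher. COL1A2, at 2148 in SW1990 CD166- cells, was detected on no other array, and LUM, DCN, PDGFRA, FAP, POSTN and COL3A1 were detected on none. Of 6 adipocyte markers, 2 were detected in SW1990 CD166+ and 1 in SW1990 CD166- cells, with sums of 289 and 687, of which LEP gave 128 and 553, and ADIPOQ, PLIN1, FABP4 and LIPE were detected on none of the 4 arrays. Of 7 leukocyte and endothelial markers, 3 were detected in each SW1990 fraction, with sums of 567 and 1069 in CD166+ and CD166- cells. CD68 and CD14 were detected on all 4 arrays, and CD68 had 387 and 860.5 in SW1990 CD166+ and CD166- cells (2.22-fold lower). PTPRC, CD3E and VWF were detected on none. The part of these identity differences in the lipid gene folds was not tested.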

How the data were processed

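RNA of 4 sorted populations was hybridised to Human HT-12v4 BeadChips, which the authors read with BeadStudio 3.2.3. The deposited table used here holds intensity without normalization and a detection p-value for each probe, and a second deposited table holds intensity that the authors scaled to a common mean per array. Intensities were corrected, offset by 16, quantile normalized and put on the log2 scale with neqc of limma 3.58.1 in R 4.3.3. Probes were named from the platform annotation (30111 of 47315 had 1 gene), and a gene was read by its probe of highest mean signal. Folds over 2 were counted where the brighter array was detected. The limma fit used genes detected on at least 2 arrays, and limma's adjusted p-values are Benjamini-Hochberg. It was tested on simulated data. Its p-values rest on how far the folds of the 2 lines disagreed, moderated by limma over all genes, and hold no spread within a population. The number of arrays, 4, limits the precision. All members, the ALCAM check and, of each other list, up to 6 genes over 2-fold were named. The members and lists were chosen with earlier results of these data known. Alternatives changed the background correction, normalization, table, detection threshold, filter, probe rule, fold and block.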

Additional observations from a re-analysis of the deposited data

Results flagged for a closer look

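For 5 members that passed 2-fold in SW1990, the fold had the opposite sign in Panc-1. The difference of the log2 folds, SW1990 minus Panc-1, was -6.07 for GPAT3 (SW1990 -5.52, Panc-1 0.54), -2.23 for ACSL1 (its measured SW1990 log2 fold of -2.20, with CD166+ cells not detected, less 0.03 in Panc-1), -1.63 for MVD (-1.06 and 0.57), -1.62 for ACACA (-1.16 and 0.46) and 1.52 for SC5D (1.26 and -0.25). With 1 array per population these differences were not tested. The Panc-1 folds of ACSL1 and SC5D were small, and among all genes measured in both lines 46.5% had opposite signs.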

How the results depend on the processing

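In SW1990, the count of sterol genes over 2-fold higher in CD166+ cells was 2, and it was 1 without background correction, 1 on the scaled table, 6 with median scaling, 6 at 1.5-fold and 1 at 3-fold. The count lower was 3. It was 2 without background correction, with an offset of 50 and on the scaled table, 1 with median scaling and at 3-fold, and 4 at 1.5-fold. For fatty acid and glycerolipid genes the count higher was 3. It was 2 without background correction, with an offset of 50, on the scaled table and at 3-fold. It was 4 with undetected signals as measured and at 1.5-fold. Their count lower was 4, and it was 3 with median scaling and at 3-fold, and 7 at 1.5-fold. In Panc-1 that count was 0, and it was 1 (ELOVL5) at 1.5-fold. Median scaling moved the median SW1990 log2 fold of all genes to 0.21, and the share of higher calls to 66.0% from 48.9%, while on the scaled table that median was -0.16. In Panc-1 the share of higher calls among all genes was 59.4%, against 75% on the scaled table, 78.6% without background correction, 70.2% with an offset of 50 and 38% after subtraction of the SW1990 CD166+ share. PMVK, LSS, ELOVL6, FADS1, ELOVL5, ACSL1 and GPAT3 were over 2-fold in SW1990 under every alternative at that fold, but SC5D, MVD, SREBF1, ACACA and ACSL4 were not. SW1990 over Panc-1 called 0 members, and 1 (SCD) on the scaled table; over all genes it called 84, against 188 without the block, 308 on the scaled table, 4 by Student's t-test and 0 without the filter. No member over 2-fold changed direction under any alternative; the sterol median in SW1990 was 0.12, with -0.02 on the scaled table and 0.43 with median scaling, and the fatty acid and glycerolipid median was -0.53, with -0.17 under median scaling. The fit across the lines paired the fractions by cell line; without that block it also called 0 genes, with 55 against 160 before adjustment. Leaving out the pair of 1 line leaves the fold of the other line, with no test. The cause of these changes was not tested.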
